A study of Homo sapiens with 238 samples.

Results

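The comparison described here sets αMut1, a clone of K562 cells in which the G-quadruplex (G4) motif of the α-globin enhancer HS-40 was mutated, against αWT, the unedited K562 line, across all genes. Its members were chosen by sample title, as the poly(A) RNA-seq libraries of αMut1 (B1 to B7, n = 7) and αWT (B1 to B8, n = 8), which make 15 of the 62 RNA-seq samples and of the 238 samples of the series. K562 is an established erythroleukaemia line grown here with no treatment named in the labels. αMut1 is homozygous for the mutation and grew from 1 sorted cell after CRISPR-Cas9 editing, so the 7 libraries are repeated samples of 1 clone and the p-values below measure the spread between libraries, not between independent edits. The labels do not say what the library numbers mark, or whether libraries of a line came from separate cultures. Numbers B1 to B4 and numbers B5 and up were compared separately, with 4 αMut1 and 4 αWT libraries in B1 to B4, and 3 αMut1 and 4 αWT libraries in B5 and up.

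HS-40 is the main distant enhancer of the α-globin genes and lies in an intron of NPRL3 near the end of the short arm of chromosome 16. A G4 is a 4-stranded fold of guanine-rich DNA, and the clone was made to ask what the loss of this fold does to the enhancer and its target genes. K562 cells carry the BCR-ABL1 fusion, express embryonic and fetal globins and many red cell membrane genes, and keep some megakaryocytic features, which makes them a common model of early erythroid cells.

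Total counts per library ran between 17701807 and 48671570, with a median of 28663159, and 18247 genes passed the filter of a mean of 10 counts per library. Values are given as CPM, counts scaled to the TMM-adjusted size of each library, and changes as log2 of αMut1 over αWT. The value after ± is a standard error derived from the edgeR test statistic, which understates the error where a group is near 0. A gene was called at an edgeR adjusted p under 0.05 together with an absolute log2 change above 0.5. The αMut1 libraries of the 2 sets stood apart from each other. The median absolute log2 difference over genes was 0.281 between αMut1 B5 to B7 and αMut1 B1 to B4, with 6.91% of genes more than 1 apart, against 0.254 and 2.96% between αWT B5 to B8 and αWT B1 to B4. αMut1 B5 to B7 were closer to αWT B5 to B8 (0.238) than to αMut1 B1 to B4. For that reason each result is given in both sets, and a pooled value only where the 2 agree in direction. The share of counts in mitochondrial genes was 1.17 to 1.67% in αMut1 B1 to B4 and 0.704 to 0.954% in αMut1 B5 to B7, against 0.813 to 0.926% in αWT B1 to B4 and 0.753 to 1.61% in αWT B5 to B8, with αWT B8 the highest of its line.

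Over all libraries, 2819 genes (15.4%) were called higher and 1341 (7.35%) lower in αMut1. In B1 to B4, 3793 genes (20.8%) were higher and 2399 (13.1%) lower, and in B5 and up 2553 (14%) were higher and 1916 (10.5%) lower. A call in the same direction in both sets was made for 1675 higher genes (9.18%) and 498 lower genes (2.73%). The 1675 higher genes were 44.2% of those called higher in B1 to B4 and 65.6% of those called higher in B5 and up. The 498 lower genes were 20.8% of those called lower in B1 to B4 and 26.0% of those called lower in B5 and up. Of the calls over all libraries, 59.1% of the higher and 36.0% of the lower genes were called in both sets. Genes higher in both sets had a median log2 change of 1.44 over all libraries, and 554 of the 1675 had risen by more than 2. Genes lower in both sets had a median fall of 0.813 on the log2 scale, and 24 of the 498 had fallen by more than 2. The αMut1 and αWT libraries did not overlap for 3247 genes (17.8%), among them 1341 of the genes higher and 355 of the genes lower in both sets.

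**Figure D1:**
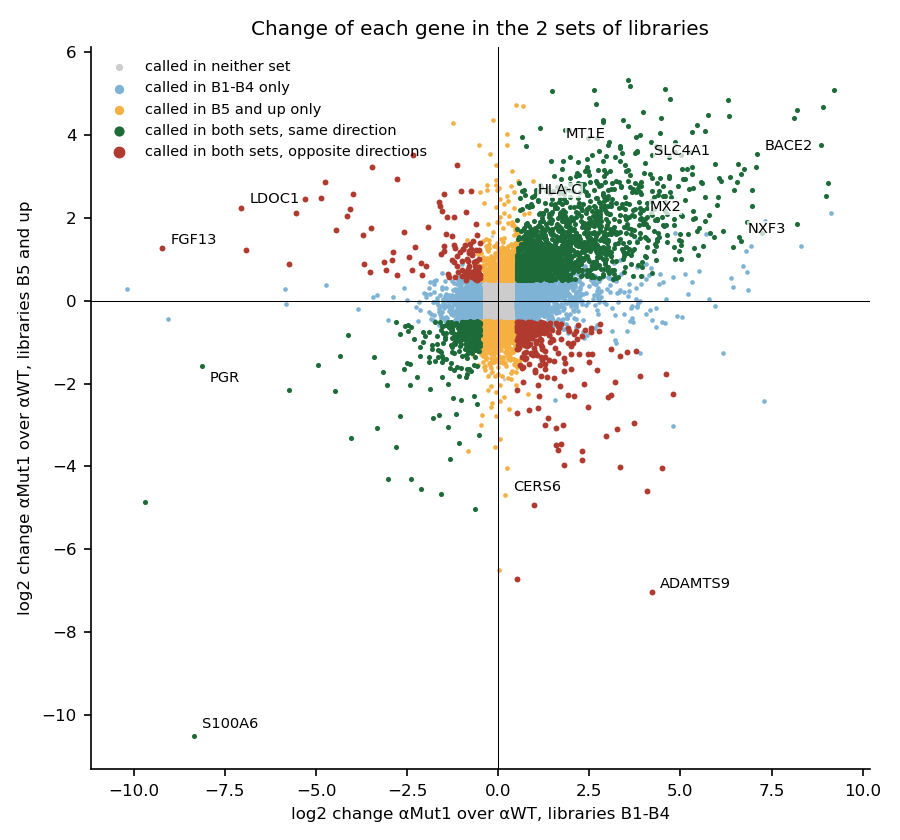
Each point is 1 of the genes tested, with its log2 change (αMut1 over αWT) in libraries B1 to B4 on the x axis and in libraries B5 and up on the y axis, coloured by the sets in which it was called. The 1675 genes higher in both sets fill the upper right, the 498 lower in both sets the lower left, and 416 genes called in opposite directions lie in the other corners.

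At the edited locus, HBA1, HBA2 and HBZ were not called in either set. HBA1 had 133, 116, 108 and 119 CPM in αMut1 B1 to B4 and 178, 149 and 175 CPM in αMut1 B5 to B7. Its αWT levels were 144, 161, 138 and 146 CPM in B1 to B4 and 154, 196, 231 and 202 CPM in B5 to B8. Its log2 change was -0.31 ± 0.13 in B1 to B4 and -0.22 ± 0.14 in B5 and up (edgeR adjusted p = 0.04 and 0.2), under the size needed for a call in either set. In B1 to B4 all αMut1 libraries lay below all αWT libraries, and in B5 and up the libraries of the lines overlapped. HBA2 and HBZ had log2 changes of -0.03 and 0.12 in B1 to B4 and of 0.05 and 0.18 in B5 and up, and neither was called. HBA1 and HBA2 are near-identical, so reads may have been shared between them. HBQ1 and NPRL3 moved more. HBQ1, the θ-globin gene, changed by -1.19 and -0.81 in B1 to B4 and in B5 and up. NPRL3, whose intron holds HS-40, changed by -0.54 and -0.72. Both were called lower in both sets, beside medians of -0.56 and -0.42 over the 444 tested genes of 16p. HBD, the δ-globin gene on chromosome 11, had 54.2, 59.8, 45.0 and 55.1 CPM in αMut1 B1 to B4 and 64.4, 66.3 and 70.1 CPM in αMut1 B5 to B7. The αWT libraries B1 to B4 had 14.9, 15.6, 14.9 and 17.7 CPM and B5 to B8 had 30.7, 27.7, 27.4 and 34.0 CPM. All αMut1 libraries lay above all αWT libraries, and HBD was called higher in both sets, with log2 changes of 1.76 and 1.16.

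Genes of the red cell membrane and surface were the erythroid group with the most rises. Of 41 tested members, 12 (29.3%) were called higher in both sets and 0 lower, against 9.18% and 2.73% of all genes tested. In B1 to B4 alone 3 members were lower, and 2 members were called in opposite directions in the sets. In bulk RNA, a different number of cells of a type and a different amount of RNA per cell cannot be told apart. The median log2 change of the list was 0.41 in B1 to B4 and 0.52 in B5 and up, beside -0.03 and -0.02 for all genes. SLC4A1, which encodes band 3, the anion exchanger that anchors the membrane skeleton of red cells (chr17:44248390-44268141 of hg38), had 158, 150.5, 144 and 152 CPM in αMut1 B1 to B4 and 187, 185 and 182 CPM in αMut1 B5 to B7. In αWT the levels were 10.2, 9.07, 8.84 and 8.81 CPM in B1 to B4 and 19.3, 18, 18.9 and 17.7 CPM in B5 to B8. Its log2 change was 4.04 ± 0.08 in B1 to B4 and 3.32 ± 0.08 in B5 and up (edgeR adjusted p = 5.4e-34 and 1.9e-31). The αMut1 libraries were all far above the αWT libraries, and the αWT libraries of B5 and up lay above those of B1 to B4.

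DMTN, which encodes dematin, an actin-bundling protein of the membrane skeleton (chr8:22048995-22082527), had 147, 143, 147 and 142 CPM in αMut1 B1 to B4 and 219.5, 229 and 228 CPM in αMut1 B5 to B7. Levels in αWT were 35.2, 36.8, 39.9 and 35.7 CPM in B1 to B4 and 46.3, 45.6, 47.3 and 48.9 CPM in B5 to B8. The log2 change was 1.97 ± 0.07 in B1 to B4 and 2.26 ± 0.07 in B5 and up (edgeR adjusted p = 7.3e-27 and 5.8e-28), with no overlap of the lines. TSPAN33, a tetraspanin of erythroid progenitors, was low in all libraries, with 1.57, 1.52, 1.23 and 1.69 CPM in αMut1 B1 to B4 and 2.62, 2.95 and 1.77 CPM in αMut1 B5 to B7. αWT cells had 0.345, 0.375, 0.273 and 0.197 CPM in B1 to B4 and 0.462, 0.423, 0.525 and 0.551 CPM in B5 to B8. It rose in both sets, by 2.33 ± 0.22 in B1 to B4 and 2.34 ± 0.19 in B5 and up (edgeR adjusted p = 2.7e-12 and 1.1e-13), and the difference of 0.01 between the sets did not pass the test (edgeR adjusted p = 0.99). BCAM, which carries the Lutheran blood group antigens, had 18.4, 19.4, 21.3 and 22.0 CPM in αMut1 B1 to B4 and 12.9, 12.0 and 11.2 CPM in αMut1 B5 to B7. For αWT, B1 to B4 gave 4.64, 4.42, 4.99 and 4.73 CPM and B5 to B8 gave 3.15, 3.14, 3.20 and 3.98 CPM. Both groups of αMut1 libraries lay above every αWT library, with log2 changes of 2.11 and 1.84. The other members higher in both sets were TPM1 (tropomyosin), the glycophorin genes GYPB and GYPE, KEL (the Kell antigen), ACKR1 (the Duffy antigen), CD59 (a complement inhibitor), and the carbonic anhydrase genes CA1 and CA2. GYPB and GYPE are close paralogs, so their separate values are uncertain. Other well-known members did not pass the test in both sets: SPTB (β-spectrin) had log2 changes of 0.02 and 0.29 in B1 to B4 and in B5 and up, ANK1 (ankyrin) -0.12 and 0.48, and TFRC (the transferrin receptor) 0.09 and -0.03.

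In heme synthesis, 3 of 13 genes (23.1%) were higher in both sets and 0 lower, against 9.18% and 2.73% of all genes tested. ALAS2, the erythroid form of the first and rate-limiting enzyme (chrX:55009055-55030977), had 219, 221, 198 and 216 CPM in αMut1 B1 to B4 and 344, 359.8 and 369 CPM in αMut1 B5 to B7. Across αWT, B1 to B4 had 157, 148, 144 and 148 CPM and B5 to B8 had 93.5, 93.4, 93.5 and 90.2 CPM. It rose in both sets, but by different amounts, 0.52 ± 0.06 in B1 to B4 and 1.95 ± 0.07 in B5 and up (edgeR adjusted p = 1.4e-09 and 2.7e-26). The difference between the sets was 1.43 ± 0.09 (edgeR adjusted p = 9.1e-17), and the B1 to B4 value is close to the size threshold, so that its call was lost without αMut1 B2 or without αWT B3. ALAD and UROS, which encode later enzymes of the pathway, changed by 0.79 and 0.72 and by 0.86 and 0.71. Among the erythroid transcription factors the balance was even. Of 27 genes, 1 was higher and 1 lower in both sets, the first FOXO3, a forkhead factor active in late erythroid cells (0.53 and 0.81), and the second HHEX, a homeobox factor of early blood cells (-0.73 and -0.60). The B1 to B4 call of FOXO3 was lost without αMut1 B1. GATA1 and KLF1, the main erythroid activators, had log2 changes of 0.13 and 0.33 and of -0.11 and 0.40, with no call in either set.

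Promoters of red cell membrane genes often hold the GATA box, the sequence read by GATA1. AGATAA, searched on both strands, was present in 3 of the 7 members higher in both sets with a RefSeq promoter (GRCh38.p14), in 7 of the 25 other tested members and in 10.5% of the 27305 promoters of all genes. The stretch before the start of KEL (chr7:142962380-142962465, minus strand) is shown as an example, with the match, or its reverse complement TTATCT, in capitals.
KEL: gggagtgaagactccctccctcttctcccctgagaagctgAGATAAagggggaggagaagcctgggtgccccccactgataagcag

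Marker genes of megakaryocytes, the platelet-forming cells, also included large rises. Of 13 tested members, 4 (30.8%) were higher and 1 (7.69%) lower in both sets, against 9.18% and 2.73% of all genes tested. In B1 to B4 alone 7 were higher and 1 lower, and in B5 and up 4 were higher and 3 lower. The list median was 0.76 in B1 to B4 and -0.04 in B5 and up. TUBB1, the platelet form of β-tubulin, had 64.7, 55.5, 54.8 and 61.8 CPM in αMut1 B1 to B4 and 90.2, 83.3 and 86.9 CPM in αMut1 B5 to B7. Its αWT levels were 11.3, 11.6, 12.3 and 12.7 CPM in B1 to B4 and 12.9, 12.8, 13 and 12.7 CPM in B5 to B8. The log2 change was 2.3 ± 0.07 in B1 to B4 and 2.75 ± 0.08 in B5 and up (edgeR adjusted p = 5.7e-28 and 9.8e-30), and the lines did not overlap. THBS1, which encodes the platelet and matrix protein thrombospondin 1, had 31.2, 32.1, 28.9 and 31.4 CPM in αMut1 B1 to B4 and 9.56, 7.07 and 10.9 CPM in αMut1 B5 to B7. The αWT libraries B1 to B4 had 1.69, 2.29, 2.28 and 1.91 CPM and B5 to B8 had 0.923, 1.16, 1.62 and 1.5 CPM. It rose in both sets, more in B1 to B4, with log2 changes of 3.91 and 2.87. RAB27B, a regulator of platelet granules, changed by 1.11 and 2.64, ITGB3, which encodes integrin β3, by 1.84 and 0.54, and PLEK (pleckstrin) by -0.54 and -3.24. The B1 to B4 call of PLEK was lost under DESeq2 and without any of αMut1 B1, αMut1 B2, αWT B1, αWT B2 or αWT B4. The summed level of the tested members was 580 to 693 CPM in αMut1 B1 to B4 and 630.4 to 694 CPM in αMut1 B5 to B7, against 387 to 456 CPM in αWT B1 to B4 and 466.2 to 561.6 CPM in αWT B5 to B8. Platelet-defining genes stayed at or near 0: PF4, GP1BB and TREML1 had no count in the 15 libraries, and GP1BA, GP9, PPBP, SELP and VWF had at most 20 counts in all. The summed granulocyte and monocyte markers stood at 228 to 257 CPM in αMut1 B1 to B4 and 82.0 to 89.1 CPM in αMut1 B5 to B7, against 89.0 to 94.5 CPM in αWT B1 to B4 and 70.2 to 82.6 CPM in αWT B5 to B8. Of the 7 tested members, LYZ (lysozyme) was the only 1 called higher in B1 to B4 and the only 1 called in both sets. That is 14.3%, against 9.18% of all genes tested higher in both sets. In B5 and up 1 member was called lower. The B5 and up call of LYZ was lost without any of αMut1 B5, αMut1 B6, αWT B6 or αWT B7. ELANE, CTSG, CSF1R, FCN1 and S100A8 had at most 20 counts over the 15 libraries. Of 9 lymphoid markers, 3 (33.3%) were higher and 0 lower in both sets, against 9.18% and 2.73% of all genes tested. Those higher were CD3G, IL2RA and NKG7. In single sets, 1 member was lower in B1 to B4 and 1 in B5 and up, and 1 was called in opposite directions in the sets. The call of NKG7 in B5 and up was lost without αMut1 B5, αMut1 B7 or αWT B5. The summed level of the list was 175 to 189 CPM in αMut1 B1 to B4 and 219.6 to 222.5 CPM in αMut1 B5 to B7, against 175 to 183 CPM in αWT B1 to B4 and 94.6 to 104 CPM in αWT B5 to B8. The part of other lineage programmes in the remaining results was not tested.

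**Figure D2:**
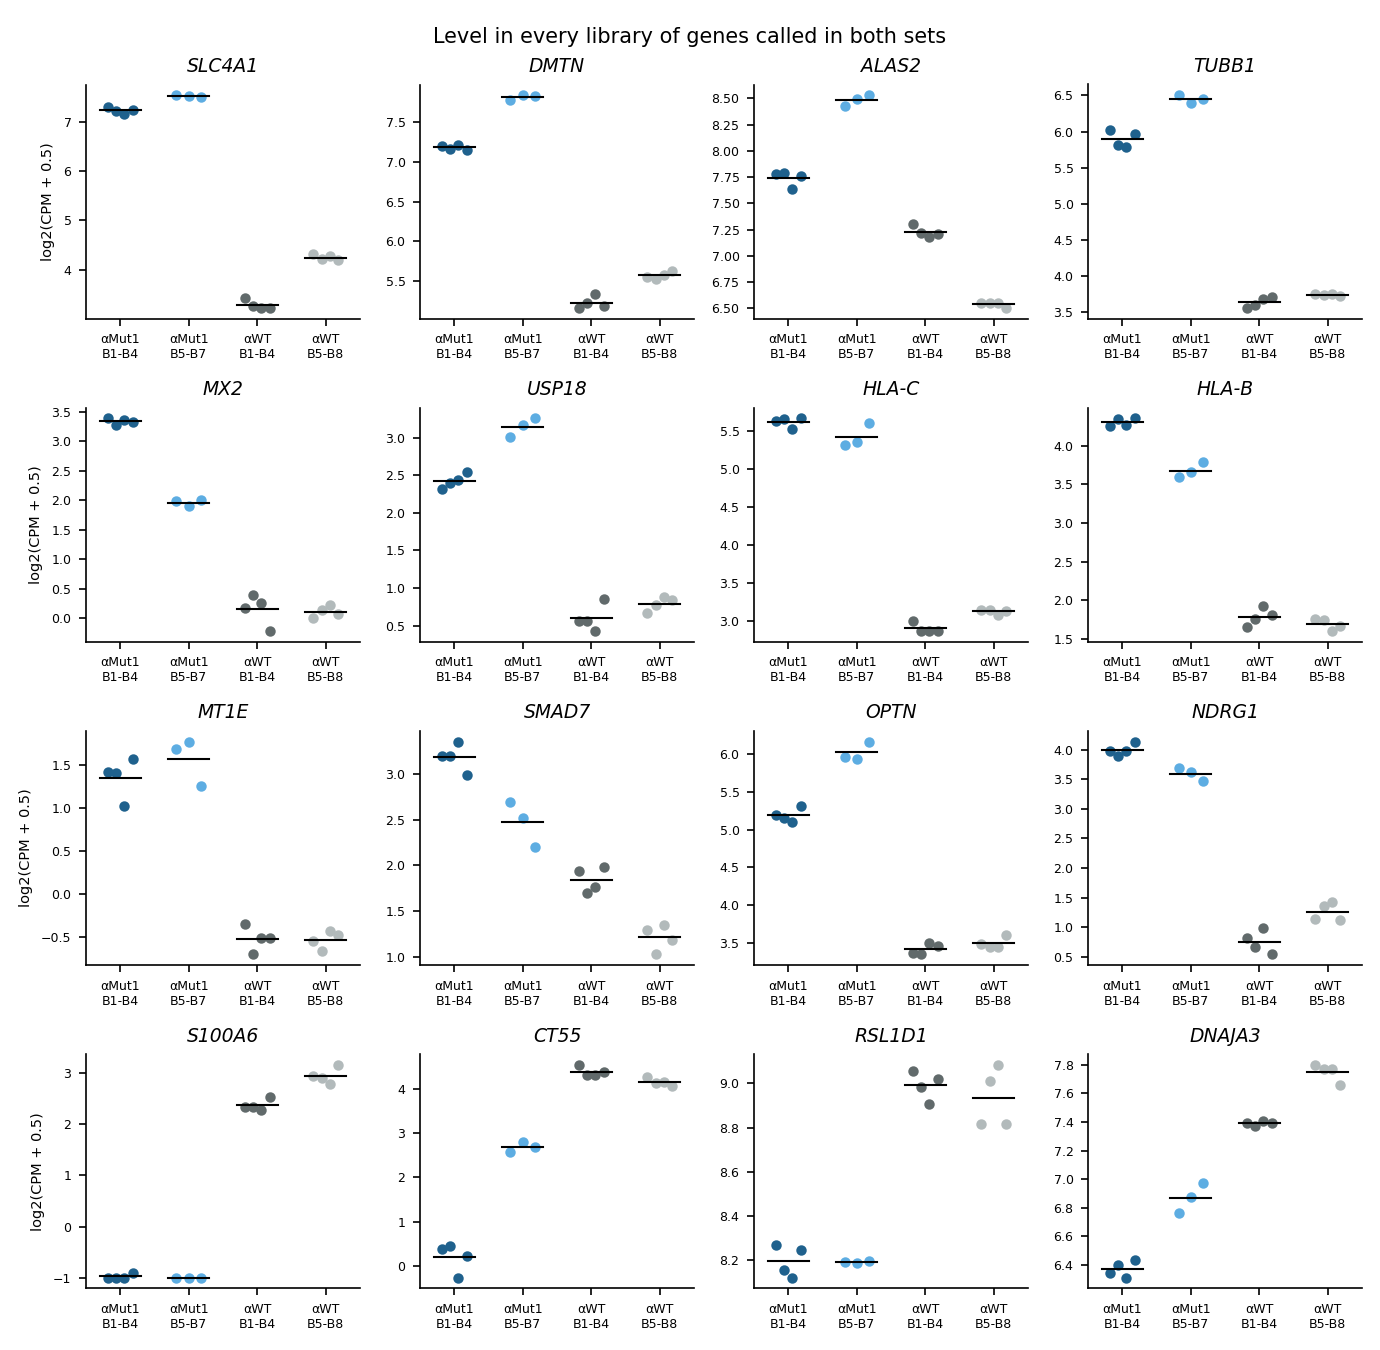
Level of 16 genes called in both sets, in every library, as log2(CPM + 0.5) on the y axis (each panel has its own scale); points are libraries and bars group means, for αMut1 B1-B4 (n = 4), αMut1 B5-B7 (n = 3), αWT B1-B4 (n = 4) and αWT B5-B8 (n = 4). In all 16 panels both αMut1 groups lie on the same side of both αWT groups, with S100A6, CT55, RSL1D1 and DNAJA3 lower and the other 12 higher in αMut1.

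Interferon-stimulated genes were the list with the most members called higher in both sets. Cells normally turn these genes on after type I interferon binds its receptor and a complex that includes STAT2 and IRF9 reaches a DNA element called the ISRE. Of 35 tested genes, 20 (57.1%) were called higher in both sets and 0 lower, against 9.18% and 2.73% of all genes tested. In single sets, 2 members were lower in B1 to B4 and 1 in B5 and up. The median log2 change of the list was 0.82 in B1 to B4 and 0.88 in B5 and up. The labels name no interferon treatment.

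Members of the group with promoter sequences in RefSeq (GRCh38.p14, 250 bases before to 50 after the start) allow the element to be seen. The core of the ISRE, GAAA followed by any 2 bases and GAAA again, was searched on both strands. It was present in 7 of the 14 genes higher in both sets that had a promoter sequence, in 9 of the 12 other tested members, and in 3.65% of 27305 promoters of all genes. The stretches below, shown because they carry this element in genes higher in both sets, are from IFIT1 (chr10:89392480-89392569, plus strand), IFIT3 (chr10:89327835-89327924, plus strand), IFI27 (chr14:94110601-94110690, plus strand), IFIH1 (chr2:162318685-162318745, minus strand) and PARP14 (chr3:122680770-122680838, plus strand). Capitals mark each match, which reads TTTC, 2 bases and TTTC where it lies on the opposite strand.
IFIT1: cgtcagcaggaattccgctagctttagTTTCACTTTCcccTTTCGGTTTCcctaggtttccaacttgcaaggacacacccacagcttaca
IFIT3: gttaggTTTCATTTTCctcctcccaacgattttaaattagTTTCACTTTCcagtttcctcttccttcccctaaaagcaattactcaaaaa
IFI27: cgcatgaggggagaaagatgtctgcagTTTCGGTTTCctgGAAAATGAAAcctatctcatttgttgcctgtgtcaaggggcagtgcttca
IFIH1: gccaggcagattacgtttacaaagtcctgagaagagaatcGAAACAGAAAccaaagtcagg
PARP14: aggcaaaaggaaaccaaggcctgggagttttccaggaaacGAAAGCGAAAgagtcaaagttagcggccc

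IFIT1 and IFIT3, whose proteins bind viral RNA or partner those that do, changed by 2.71 and 1.04 and by 1.95 and 1.74 in B1 to B4 and in B5 and up. IFIH1, the cytoplasmic double-stranded RNA sensor MDA5, changed by 1.42 and 2.60, PARP14, an ADP-ribosyltransferase, by 0.76 and 0.88, and IFI27, a small mitochondrial protein, by 0.88 and 1.28. The largest rises of the list were elsewhere. MX2, a dynamin-like antiviral GTPase (chr21:41361999-41409393), had 9.95, 9.16, 9.81 and 9.55 CPM in αMut1 B1 to B4 and 3.47, 3.22 and 3.5 CPM in αMut1 B5 to B7. In αWT the levels were 0.627, 0.824, 0.695 and 0.362 CPM in B1 to B4 and 0.502, 0.608, 0.668 and 0.551 CPM in B5 to B8. Its log2 change was 3.93 ± 0.14 in B1 to B4 and 2.57 ± 0.16 in B5 and up (edgeR adjusted p = 6.4e-26 and 4.7e-17), with every αMut1 library above every αWT library.

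USP18, an ISG15-removing protease that also dampens interferon receptor signalling (chr22:18150118-18177397), had 4.49, 4.77, 4.92 and 5.32 CPM in αMut1 B1 to B4 and 7.56, 8.52 and 9.06 CPM in αMut1 B5 to B7. Levels in αWT were 0.972, 0.974, 0.844 and 1.32 CPM in B1 to B4 and 1.08, 1.22, 1.34 and 1.29 CPM in B5 to B8. It rose by 2.26 ± 0.15 in B1 to B4 and 2.78 ± 0.14 in B5 and up (edgeR adjusted p = 2.1e-17 and 2.0e-20). RSAD2, which encodes viperin, had 29.6, 26.7, 23.2 and 26.5 CPM in αMut1 B1 to B4 and 7.59, 8.04 and 7.12 CPM in αMut1 B5 to B7. αWT cells had 2.35, 2.88, 2.28 and 2.04 CPM in B1 to B4 and 4.38, 4.76, 4.29 and 3.80 CPM in B5 to B8. The rise was far larger in B1 to B4, 3.47 ± 0.12 in B1 to B4 and 0.81 ± 0.12 in B5 and up (edgeR adjusted p = 1.7e-26 and 6.2e-07), and the difference between the sets was -2.66 ± 0.18 (edgeR adjusted p = 3.3e-16). HERC6, IFIT2, DHX58, SAMD9, SAMD9L, CMPK2, UBA7, IFI6, PARP9, STAT2, IRF1 and IRF7 were also higher in both sets. ISG15, a ubiquitin-like protein, had log2 changes of -0.43 and 0.14, with no call. IFITM3, which blocks viral entry, went against the list in B1 to B4, where its log2 change was -4.74, and was not called in B5 and up (0.38).

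Genes of MHC class I antigen presentation moved the same way. Of 15 tested, 6 (40%) were higher in both sets and 0 lower, against 9.18% and 2.73% of all genes tested. K562 cells are known for very low surface MHC class I. HLA-C had 49.1, 49.9, 45.6 and 50.2 CPM in αMut1 B1 to B4 and 39.3, 40.2 and 48.0 CPM in αMut1 B5 to B7. For αWT, B1 to B4 gave 7.50, 6.82, 6.80 and 6.77 CPM and B5 to B8 gave 8.35, 8.35, 7.92 and 8.23 CPM. The log2 change was 2.80 ± 0.08 in B1 to B4 and 2.37 ± 0.09 in B5 and up (edgeR adjusted p = 9.5e-29 and 1.4e-25). HLA-B had 18.6, 19.8, 18.8 and 20.0 CPM in αMut1 B1 to B4 and 11.6, 12.1 and 13.3 CPM in αMut1 B5 to B7, against 2.64, 2.88, 3.30 and 2.99 CPM in αWT B1 to B4 and 2.87, 2.85, 2.53 and 2.66 CPM in αWT B5 to B8, a change of 2.70 ± 0.09 in B1 to B4 and 2.16 ± 0.10 in B5 and up (edgeR adjusted p = 6.3e-27 and 4.0e-22). For both genes the αMut1 libraries lay well above all αWT libraries. Class I genes resemble each other and differ between alleles, so their counts are uncertain as to which gene each read came from. PSMB9 and PSMB8, the immunoproteasome subunits, changed by 1.95 and 1.88 and by 1.12 and 1.83, TAP1, a subunit of the peptide transporter, by 1.18 and 1.23, and ERAP2, a peptide-trimming enzyme, by 1.08 and 0.53. B2M, the common light chain, had log2 changes of 0.09 and 0.21 and was not called.

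Several other groups held genes that rose in both sets. NF-κB targets and chemokines had 4 of 16 (25.0%) higher and 0 lower in both sets, against 9.18% and 2.73% of all genes tested. These were CCL2, a monocyte chemokine (4.28 and 1.21 in B1 to B4 and in B5 and up), BIRC3, an apoptosis inhibitor (2.75 and 3.15), and BCL3 and RELB, 2 members of the NF-κB and IκB families (2.42 and 1.57 and 1.62 and 1.26). CXCL8 and IL6, by contrast, were called higher in B1 to B4 and lower in B5 and up, with log2 changes of 2.77 and -0.72 for CXCL8 and 1.73 and -0.56 for IL6. Of 25 AP-1 and immediate early genes, 4 (16.0%) were higher and 0 lower in both sets, against 9.18% and 2.73% of all genes. They were DUSP4, NR4A2, KLF2 and KLF4, of which KLF2 lost its B5 and up call without αMut1 B5. In single sets, 2 members were lower in B1 to B4 and 2 in B5 and up.

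The metallothioneins, small cysteine-rich proteins that bind zinc and copper, were the list with the highest share. Of 8 genes, which include 2 zinc-handling genes, 5 (62.5%) were higher and 0 lower in both sets, against 9.18% and 2.73% of all genes. In B1 to B4 alone 1 member was called lower. All 5 are in the cluster on the long arm of chromosome 16 and were low in αWT. MT1E (chr16:56625475-56627112) had 2.16, 2.14, 1.53 and 2.47 CPM in αMut1 B1 to B4 and 2.72, 2.91 and 1.89 CPM in αMut1 B5 to B7. Across αWT, B1 to B4 had 0.282, 0.112, 0.199 and 0.197 CPM and B5 to B8 had 0.181, 0.132, 0.238 and 0.214 CPM. Its log2 change was 3.33 ± 0.24 in B1 to B4 and 3.74 ± 0.25 in B5 and up (edgeR adjusted p = 1.1e-15 and 1.3e-16). MT1G (chr16:56666730-56668065) had 2.27, 1.94, 1.76 and 2.57 CPM in αMut1 B1 to B4 and 4.06, 3.98 and 3.94 CPM in αMut1 B5 to B7. Its αWT levels were 0.565, 0.599, 0.695 and 0.329 CPM in B1 to B4 and 0.261, 0.211, 0.334 and 0.122 CPM in B5 to B8. It rose by 1.93 ± 0.24 in B1 to B4 and 4.11 ± 0.26 in B5 and up (edgeR adjusted p = 2.1e-09 and 5.1e-17), and the difference between the sets was 2.2 ± 0.39 (edgeR adjusted p = 1.1e-05). MT1A, MT1F and MT1X changed by 3.97 and 4.55, by 2.89 and 3.15 and by 0.83 and 1.15. MT2A was called in B5 and up only (0.44 and 2.23), and MTF1, the zinc-sensing factor that drives these genes, had log2 changes of -0.34 and -0.41 with no call. The MT1 genes are near-identical copies, so how reads divide among them is uncertain.

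In the TGF-β, BMP and WNT pathways, 10 of 33 genes (30.3%) were higher and 1 lower in both sets. The shares of all genes tested were 9.18% and 2.73%. Among receptors, TGFBR2, the type II TGF-β receptor (chr3:30606601-30694142), had 6.43, 6.32, 5.02 and 5.66 CPM in αMut1 B1 to B4 and 0.916, 0.762 and 0.765 CPM in αMut1 B5 to B7. The αWT libraries B1 to B4 had 0.345, 0.524, 0.348 and 0.296 CPM and B5 to B8 had 0.502, 0.370, 0.477 and 0.520 CPM. The rise was 3.95 ± 0.17 in B1 to B4 and 0.80 ± 0.23 in B5 and up (edgeR adjusted p = 6.2e-23 and 0.0037), and the difference between the sets was -3.15 ± 0.30 (edgeR adjusted p = 2.4e-11). Among inhibitors, SMAD7, which blocks the receptors, had 8.70, 8.67, 9.74 and 7.42 CPM in αMut1 B1 to B4 and 5.99, 5.23 and 4.11 CPM in αMut1 B5 to B7. In αWT the levels were 3.33, 2.73, 2.88 and 3.45 CPM in B1 to B4 and 1.95, 1.53, 2.05 and 1.78 CPM in B5 to B8. It rose in both sets, by 1.48 ± 0.15 in B1 to B4 and 1.5 ± 0.17 in B5 and up (edgeR adjusted p = 1.3e-11 and 1.2e-09). SMAD6, the BMP-selective inhibitor, and SKIL, a SMAD co-repressor, changed by 0.85 and 1.20 and by 1.38 and 0.53. Among ligands, LEFTY2, a Nodal antagonist, changed by 3.17 and 1.78, GDF15, a stress-induced cytokine, by 0.90 and 0.82, and TGFB1 by 0.55 and 0.64. On the WNT side, NKD1, a feedback inhibitor, LGR4, an R-spondin receptor, and FZD7, a Frizzled receptor, were higher in both sets, and NKD1 lost its B5 and up call without αMut1 B5. LEF1, a transcription factor of the pathway, was lower in both sets (-0.77 and -1.0).

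Lysosome and autophagy genes had 5 of 30 (16.7%) higher and 0 lower in both sets, against 9.18% and 2.73% of all genes tested. OPTN, an autophagy receptor (chr10:13099449-13138308), had 36.2, 35.2, 33.6 and 39.3 CPM in αMut1 B1 to B4 and 61.7, 60.6 and 71.0 CPM in αMut1 B5 to B7. Levels in αWT were 9.88, 9.70, 10.9 and 10.6 CPM in B1 to B4 and 10.7, 10.5, 10.4 and 11.7 CPM in B5 to B8. The log2 change was 1.81 ± 0.09 in B1 to B4 and 2.57 ± 0.09 in B5 and up (edgeR adjusted p = 9.0e-22 and 3.9e-26). GABARAPL1 (an ATG8 family protein), WIPI1 (an autophagosome scaffold), TFE3 (a lysosomal gene activator) and CTSD (cathepsin D) changed by 1.90 and 1.12, 1.21 and 1.13, 0.90 and 0.70 and 0.57 and 0.98. PSAP, the precursor of the saposins that help lysosomal lipid breakdown, had the largest rise in mean CPM of the protein-coding genes outside the globins called in both sets, with a mean of 1153 CPM in αMut1 and 752 CPM in αWT. The next largest rises in CPM were those of LAPTM4B, SPARC, MAP1A, PIM2, ALAS2, SLC4A1 and TIMP1. SPARC, a secreted matrix glycoprotein (chr5:151661096-151686975), had 354, 339, 314 and 349 CPM in αMut1 B1 to B4 and 114, 118 and 118 CPM in αMut1 B5 to B7. αWT cells had 69.5, 61.3, 64.1 and 62.7 CPM in B1 to B4 and 35.7, 38.6, 37.9 and 38.0 CPM in B5 to B8. All αMut1 libraries were above all αWT libraries, and the difference between the sets was -0.76 ± 0.10 (edgeR adjusted p = 1.6e-08).

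Other named rises came from lists whose members did not move as a group. NDRG1, which is induced by hypoxia and iron loss (chr8:133237175-133302022), had 15.3, 14.3, 15.3 and 17.1 CPM in αMut1 B1 to B4 and 12.4, 11.8 and 10.6 CPM in αMut1 B5 to B7. For αWT, B1 to B4 gave 1.25, 1.09, 1.49 and 0.953 CPM and B5 to B8 gave 1.71, 2.06, 2.19 and 1.68 CPM. It changed by 3.67 ± 0.12 in B1 to B4 and 2.62 ± 0.12 in B5 and up (edgeR adjusted p = 8.4e-27 and 1.6e-21). Of the 29 hypoxia and glycolysis genes tested, 2 (6.90%) were higher and 1 (3.45%) lower in both sets. The shares of all genes tested were 9.18% and 2.73%. Higher were NDRG1 and P4HA2, a collagen prolyl hydroxylase, and lower was HK2, a hexokinase. CDKN1A, which encodes the cell cycle inhibitor p21, had 21.0, 21.5, 19.8 and 21.1 CPM in αMut1 B1 to B4 and 9.98, 9.08 and 8.09 CPM in αMut1 B5 to B7. Across αWT, B1 to B4 had 4.20, 5.62, 5.09 and 4.50 CPM and B5 to B8 had 4.82, 4.20, 4.58 and 5.23 CPM. Its log2 change was 2.10 ± 0.12 in B1 to B4 and 0.94 ± 0.13 in B5 and up (edgeR adjusted p = 5.4e-19 and 1.2e-07). Of 34 cell cycle genes, 3 (8.82%) were higher and 0 lower in both sets, near the 9.18% higher among all genes tested. BMF, a BH3-only cell death protein, and FAS, a death receptor, changed by 2.92 and 2.29 and by 2.81 and 1.46. The death receptors TNFRSF10A and TNFRSF10B changed by -0.82 and -0.65 and by -0.99 and -0.61. This list of 23 thus had 2 (8.70%) higher and 2 (8.70%) lower in both sets. Only the higher share was near that of all genes tested, 9.18% higher and 2.73% lower. PIM2, EPOR and CISH, a kinase, the erythropoietin receptor and a feedback inhibitor of the JAK-STAT5 pathway, were higher in both sets and KIT lower. They were 3 (12.5%) and 1 (4.17%) of 24 tested genes of JAK-STAT5, KIT and cytokine receptor signalling. Of all genes tested, 9.18% were higher and 2.73% lower in both sets. In the 2 sets, 2 members of this list were called in opposite directions.

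The largest fold rises were of genes near 0 in αWT and belonged to no list. BACE2, an aspartyl protease related to β-secretase (chr21:41167801-41282530), had 46.3, 44.7, 44 and 49.3 CPM in αMut1 B1 to B4 and 5.56, 5.30 and 5.68 CPM in αMut1 B5 to B7. Its αWT levels were 0.439, 0.450, 0.298 and 0.164 CPM in B1 to B4 and 0.502, 0.476, 0.334 and 0.520 CPM in B5 to B8. NXF3, a testis-expressed relative of the mRNA exporter NXF1 (chrX:103075810-103093143), had 92.7, 104, 124 and 91.1 CPM in αMut1 B1 to B4 and 2.68, 3.22 and 1.93 CPM in αMut1 B5 to B7. The αWT libraries B1 to B4 had 1.38, 0.862, 0.919 and 1.05 CPM and B5 to B8 had 0.723, 0.819, 0.715 and 1.38 CPM. Both were far higher in αMut1 B1 to B4 than in αMut1 B5 to B7, which still lay above all αWT libraries. The difference between the sets was -3.56 ± 0.41 (edgeR adjusted p = 1.9e-09) for BACE2 and -5.07 ± 0.51 (edgeR adjusted p = 5.7e-11) for NXF3. ELSPBP1, GNG2 (a G protein γ subunit), LRAT (a retinol esterifying enzyme), AMBN (an enamel matrix protein), CGA (the common subunit of the gonadotropins), LMNTD1, PRUNE2 and MDGA2 completed the 10 largest rises. In B5 and up the call of PRUNE2 was lost without αMut1 B5, αMut1 B7, αWT B6 or αWT B8, and that of MDGA2 without αMut1 B6. Of these 8, the mean CPM was 6.76 to 31.2 in αMut1 B1 to B4 and 0.222 to 2.35 in αMut1 B5 to B7, against 0.0141 to 0.122 in αWT B1 to B4 and 0.0196 to 0.123 in αWT B5 to B8. GNG2 had 1300 counts in αMut1 B1 to B4 against 2 in αWT B1 to B4, a ratio of 861-fold with a 95% counting interval of 238 to 7117. DPPA4, a germline and pluripotency gene, changed by 5.95 and 3.29.

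The sharpest fall was that of S100A6, a calcium-binding protein known to be raised in many proliferating cells (chr1:153534599-153536244). S100A6 had 1 count in αMut1 B1 to B4 together and 0 in αMut1 B5 to B7, against 606 in αWT B1 to B4 and 1031 in αWT B5 to B8. In CPM, the αWT libraries stood at 4.37 to 8.45. In B5 and up it was at least 206.5-fold lower in αMut1, taking 3 counts over the group as the floor, and in B1 to B4 the ratio was 457.5-fold with a 95% counting interval of 81.8 to 18100. S100A10, a related gene in the same cluster of chromosome 1, was higher in both sets (4.19 and 2.40). CT55, a cancer-testis gene (chrX:135156540-135171398), had 0.811, 0.864, 0.333 and 0.678 CPM in αMut1 B1 to B4 and 5.50, 6.48 and 6.0 CPM in αMut1 B5 to B7. In αWT the levels were 22.8, 19.4, 19.3 and 20.5 CPM in B1 to B4 and 18.9, 17.1, 17.4 and 16.3 CPM in B5 to B8. PGR, the progesterone receptor (chr11:101029624-101129813), had 0, 0, 0.0333 and 0 CPM in αMut1 B1 to B4 and 0.949, 0.762 and 0.443 CPM in αMut1 B5 to B7. Levels in αWT were 4.14, 4.01, 3.82 and 4.21 CPM in B1 to B4 and 2.27, 2.11, 2.38 and 1.99 CPM in B5 to B8. Both were lowest in αMut1 B1 to B4, and αMut1 B5 to B7 lay between those libraries and αWT. The other 7 of the 10 largest falls were KIF1A (a kinesin), FMR1NB, CPVL (a carboxypeptidase), MUC19 (a mucin), S1PR3 (a sphingosine phosphate receptor), ALX4 (a homeobox factor) and HYAL1 (a hyaluronidase), with means of 0.0257 to 0.364 CPM in αMut1 B1 to B4 and 0.110 to 1.64 CPM in αMut1 B5 to B7, against 1.48 to 6.26 CPM in αWT B1 to B4 and 1.03 to 4.15 CPM in αWT B5 to B8. Of 24 cancer-testis antigens, 3 (12.5%) were higher (MAGEA1, PAGE2 and SSX1) and 3 (12.5%) lower (CT55, PASD1 and MAGEA4) in both sets. Of all genes tested, 9.18% were higher and 2.73% lower in both sets, so only the higher share was near that of all genes. In the 2 sets, 3 members were called in opposite directions. Several of these antigens are members of multicopy families whose reads may be shared. PAGE2 lost its B1 to B4 call without αMut1 B2, αMut1 B3 or αWT B4.

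Cholesterol synthesis and uptake held the most falls of the metabolic lists. Of 26 genes, 4 (15.4%) were lower and 1 higher in both sets, against 2.73% and 9.18% of all genes tested. Among them, MSMO1, a sterol oxidase of the pathway, changed by -0.99 and -0.75, whereas TM7SF2, a sterol reductase, changed by 0.64 and 0.96. A further 7 genes, among them INSIG1, which restrains the pathway (-1.33 and -0.17), were called lower in B1 to B4 only.

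Ribosome biogenesis genes, many of them targets of MYC, had 3 of 30 (10.0%) lower and 0 higher in both sets. These were NIP7, MRTO4 and POLR1C, with log2 changes of -1.0 and -0.51, -0.63 and -0.61 and -0.56 and -0.62. Of all genes tested, 2.73% were lower and 9.18% higher in both sets. The B5 and up call of NIP7 was lost without αMut1 B5 or without any of αWT B5, B6 and B7. In B1 to B4 alone 15 of 30 (50%) were called lower, and in B5 and up 4 (13.3%), with list medians of -0.49 and -0.28. The shares of all genes called lower were 13.1% and 10.5%, so the B5 and up share was near that of all genes. MYC itself changed by -0.33 and -0.61 and was called lower in B5 and up only. NSUN2, an RNA methyltransferase, was the only one of 31 G4-binding and G4-unwinding proteins called in both sets (-0.50 and -0.56), and its B1 to B4 value is at the size threshold, with no call there under DESeq2 or without αMut1 B1, αMut1 B2, αWT B1 or αWT B2. No gene was called in both sets in 1 direction among 40 cytosolic ribosomal proteins, 13 RNA polymerase II subunits, 33 chromatin architecture and Mediator genes, 22 endoplasmic reticulum chaperones and 23 heat shock and proteasome genes. The edgeR counts in single sets for these 5 lists were between 0 and 3 in each direction.

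The genes lower in αMut1 were not spread evenly over the genome. The short arm of chromosome 16, which carries HS-40 and the α-globin genes, held 444 tested genes, 2.44% of all, and 18.5% of the genes lower in both sets (92 of 498). On 16p the median log2 change was -0.56 in B1 to B4 and -0.42 in B5 and up, and 85.4% of its genes had a log2 change below 0 in B5 and up. All 4 windows of 10 megabases on the arm had medians below 0 in both sets. The first 10 megabases had a median of -0.63 in B1 to B4 and -0.45 in B5 and up (193 genes), and the stretch between 20 and 30 megabases had -0.47 and -0.45 (98 genes). These were the only 2 of the windows of 10 megabases with at least 20 tested genes whose median passed 0.4 in both sets. The other windows of 16p had -0.54 and -0.39, and -0.50 and -0.35. As a median per library over the genes with a mean of at least 1 CPM, relative to the mean of all αWT libraries, 16p stood between -0.69 and -0.58 in αMut1 B1 to B4 and between -0.31 and -0.30 in αMut1 B5 to B7, against -0.11 to -0.05 in αWT B1 to B4 and 0.07 to 0.11 in αWT B5 to B8. No αMut1 library overlapped an αWT library. DNA copy number was not measured in these libraries, and a part of it in this result was not tested.

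DNAJA3, a mitochondrial co-chaperone (chr16:4425805-4456775), was an example, with 80.5, 84.0, 78.8 and 86.0 CPM in αMut1 B1 to B4 and 108, 117 and 125 CPM in αMut1 B5 to B7. αWT cells had 168, 165, 169 and 168 CPM in B1 to B4 and 222, 218, 218 and 201 CPM in B5 to B8. It changed by -1.02 ± 0.06 in B1 to B4 and -0.88 ± 0.07 in B5 and up (edgeR adjusted p = 4.7e-18 and 1.8e-14). RSL1D1, a nucleolar protein (chr16:11833850-11851580), had 308, 284, 278 and 303 CPM in αMut1 B1 to B4 and 292, 291 and 293 CPM in αMut1 B5 to B7, against 531, 505, 479.6 and 519 CPM in αWT B1 to B4 and 450.3, 515, 542 and 451 CPM in αWT B5 to B8, the largest fall in mean CPM among the same genes. The log2 change was -0.80 ± 0.08 in B1 to B4 and -0.75 ± 0.08 in B5 and up (edgeR adjusted p = 5.0e-12 and 6.0e-10). RNPS1 (a splicing activator), ZNF598 (a sensor of collided ribosomes), DCTN5 (a dynactin subunit), POLR3E (an RNA polymerase III subunit) and THUMPD1 (an RNA modification factor), the other most abundant such genes of the 2 windows, changed by -0.78 and -0.52, -1.15 and -0.56, -0.84 and -0.60, -0.81 and -0.71 and -0.74 and -0.58. Of 13 tested genes around the α-globin cluster that are not globins, 3 (23.1%) were lower and 0 higher in both sets, RAB11FIP3, DECR2 and NPRL3, beside 20.7% lower in both sets on 16p as a whole. Without αWT B8, DECR2 lost its B5 and up call and 2 remained, and without αWT B6, RNPS1 lost its call there.

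Other arms moved in 1 set more than in the other. The long arm of chromosome 16 had medians of -0.29 in B1 to B4 and -0.06 in B5 and up. The short arm of chromosome 1 had -0.16 and -0.39, and held a further 92 of the genes lower in both sets (18.5%, with 5.53% of the genes tested), among them MARCKSL1, SLC16A1 (a lactate transporter), SF3A3 (a splicing factor) and MRTO4, which with RSL1D1 and NSUN2 were among the 8 largest falls in CPM. SF3A3 lost its B5 and up call without αMut1 B5, αWT B6 or αWT B7. The long arm of chromosome 1 had -0.30 and 0.01, 7p had 0.33 and -0.06, and 5p had -0.03 and -0.31. Over the last part of the X chromosome, from 120 megabases, 194 genes had medians of -0.83 in B1 to B4 and 0.04 in B5 and up. Of these, 130 were called lower in B1 to B4 and 22 in B5 and up. Among all genes tested, 13.1% were lower in B1 to B4 and 10.5% in B5 and up, so the 22 were near that share. Per library, this stretch stood between -0.86 and -0.79 in αMut1 B1 to B4 and between -0.02 and 0.01 in αMut1 B5 to B7, against 0.03 to 0.05 in αWT B1 to B4 and -0.07 to -0.03 in αWT B5 to B8. Between 100 and 110 megabases of the same arm, 60 genes had medians of 0.65 and -0.14. These further regions were chosen after their values were seen. FMR1NB, CT55, FGF13 and LDOC1, described elsewhere in the text, lie in the stretch from 120 megabases.

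**Figure D3:**
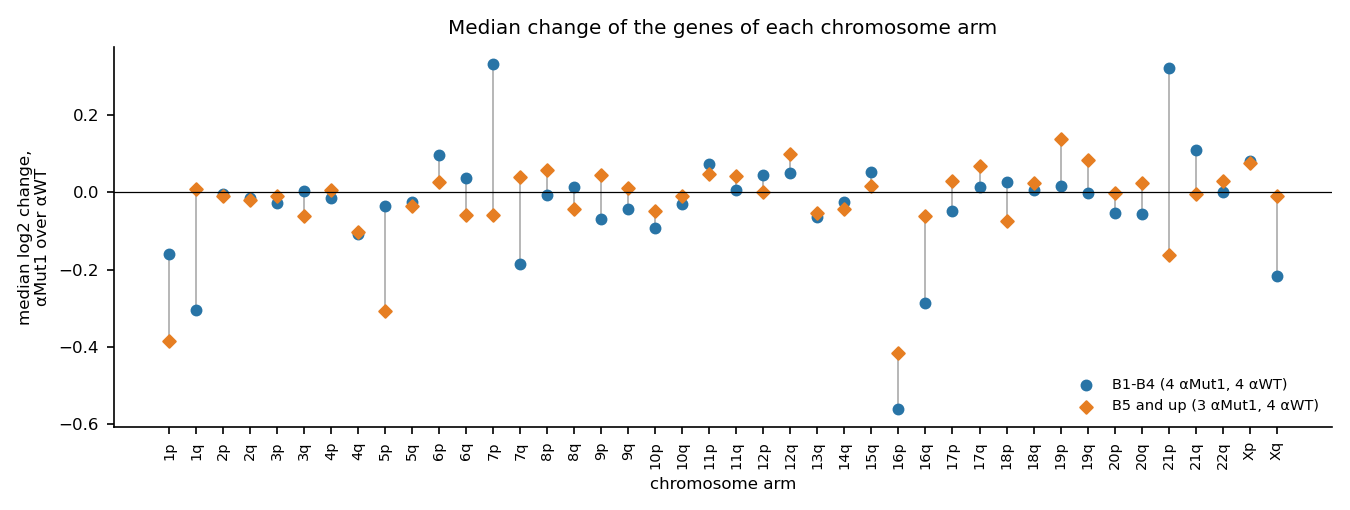
Median log2 change (αMut1 over αWT, y axis) of the tested genes of each chromosome arm (x axis, arms with at least 20 tested genes), in libraries B1-B4 (circles) and B5 and up (diamonds). 16p is the lowest arm in both sets (-0.56 and -0.42), while 1q, 5p, 7p and 16q depart from 0 mainly in 1 set.

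The change itself differed between the 2 sets for many genes. Tested as an interaction, 2233 genes (12.2%) had a higher and 3109 (17%) a lower log2 change in B5 and up than in B1 to B4, by more than 0.5. Of the genes called in both sets in 1 direction, 692 higher and 96 lower ones also differed in size. A call in opposite directions was made for 416 genes (2.28%), of which 289 were higher in B1 to B4 and lower in B5 and up and 127 the reverse. A further 1829 higher and 1774 lower genes were called in B1 to B4 only, and 751 higher and 1129 lower genes in B5 and up only.

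Near-complete loss in one set and presence in the other marked the largest of these. FGF13, an intracellular fibroblast growth factor homologue that binds sodium channels (chrX:138614727-139222777), had 0.0541, 0.138, 0.0998 and 0.0678 CPM in αMut1 B1 to B4 and 63.3, 64.9 and 61.6 CPM in αMut1 B5 to B7. For αWT, B1 to B4 gave 64.3, 55.0, 60.1 and 56.9 CPM and B5 to B8 gave 27.5, 28.0, 24.5 and 24.9 CPM. It was almost absent from αMut1 B1 to B4, while αMut1 B5 to B7 lay above their αWT counterparts, and the difference between the sets was 10.50 (edgeR adjusted p = 6.1e-36). LDOC1, a small leucine-zipper protein (chrX:141111605-141177129), had 0, 0, 0.0665 and 0.0339 CPM in αMut1 B1 to B4 and 19.3, 19 and 21.3 CPM in αMut1 B5 to B7, against 5.02, 4.20, 4.37 and 3.95 CPM in αWT B1 to B4 and 4.38, 4.41, 3.82 and 4.01 CPM in αWT B5 to B8, a difference of 9.30 (edgeR adjusted p = 4.5e-26). CALN1, a calcium-binding protein on chromosome 7 (chr7:71779491-72447151), had 0.108, 0.0691, 0.0665 and 0.102 CPM in αMut1 B1 to B4 and 21.1, 20.4 and 20.8 CPM in αMut1 B5 to B7. Across αWT, B1 to B4 had 11.1, 10.5, 10.6 and 11 CPM and B5 to B8 had 9.56, 8.80, 8.58 and 8.76 CPM. The same 4 libraries were near 0 for all 3 genes.

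The reverse pattern was seen for BCHE, butyrylcholinesterase (chr3:165772904-165837462), which had 20.0, 18.1, 17.3 and 19.9 CPM in αMut1 B1 to B4 and 0, 0.0693 and 0.0403 CPM in αMut1 B5 to B7. Its αWT levels were 0.941, 0.599, 0.819 and 0.953 CPM in B1 to B4 and 0.662, 0.608, 0.477 and 0.857 CPM in B5 to B8. ADAMTS9, a secreted metalloprotease (chr3:64515654-64688000), had 5.30, 4.42, 4.42 and 5.15 CPM in αMut1 B1 to B4 and 0, 0 and 0 CPM in αMut1 B5 to B7. The αWT libraries B1 to B4 had 0.314, 0.0749, 0.298 and 0.296 CPM and B5 to B8 had 0.662, 0.713, 0.715 and 0.490 CPM. In B5 and up, ADAMTS9 had no count in αMut1 against 91 in αWT, so it was at least 18.2-fold lower there, with the floor at 3 counts over the group. BCHE had 3 counts against 94, a ratio of 18.8-fold with a 95% counting interval of 6.25 to 93.0. CCDC33 followed the same course, with means of 1.26 CPM in αMut1 B1 to B4 and 0 CPM in αMut1 B5 to B7, against 0.0687 CPM in αWT B1 to B4 and 0.127 CPM in αWT B5 to B8.

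**Figure D4:**
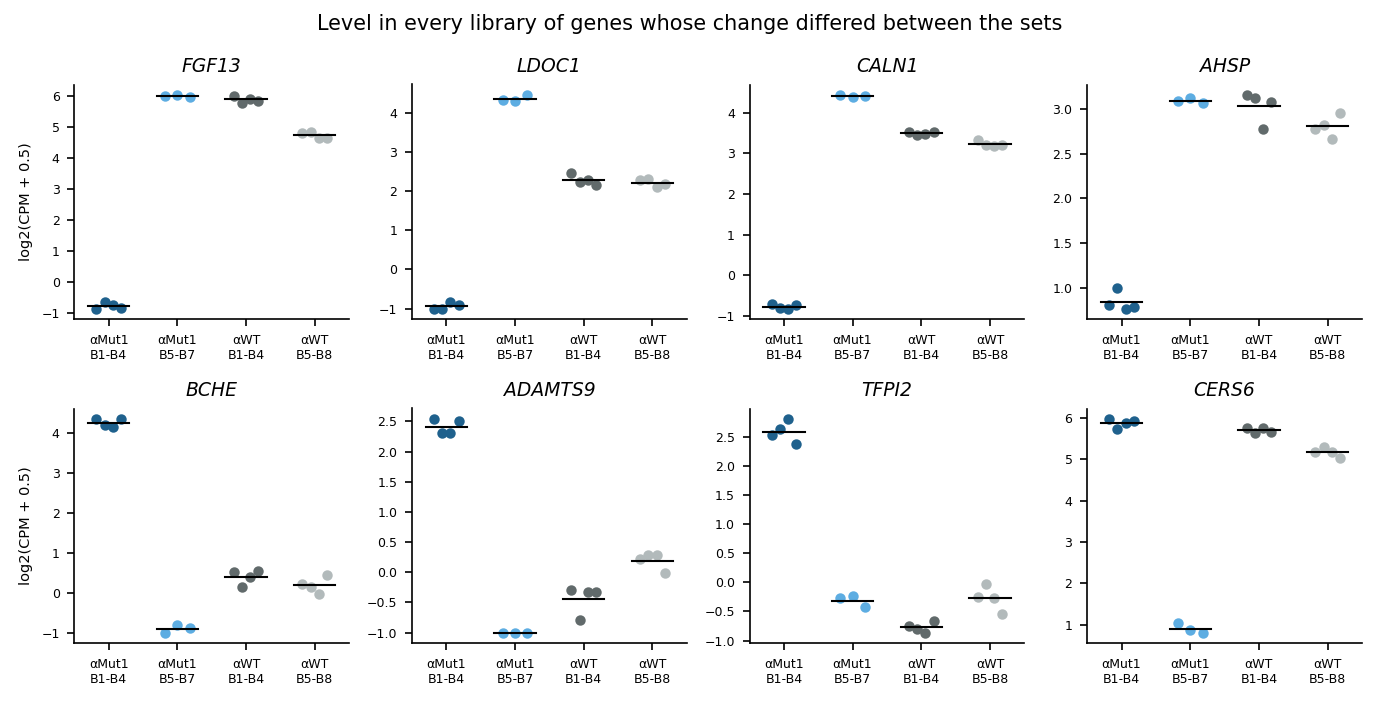
Level of 8 genes whose change differed between the sets, in every library, as log2(CPM + 0.5) on the y axis (each panel has its own scale); points are libraries and bars group means for αMut1 B1-B4 (n = 4), αMut1 B5-B7 (n = 3), αWT B1-B4 (n = 4) and αWT B5-B8 (n = 4). FGF13, LDOC1, CALN1 and AHSP were lowest in αMut1 B1-B4, whereas BCHE, ADAMTS9 and TFPI2 were highest there and CERS6 was lowest in αMut1 B5-B7.

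Among genes called in B1 to B4 with a log2 change within 0.25 of 0 in B5 and up, TFPI2, a secreted protease inhibitor (chr7:93885396-93890753), had 5.24, 5.67, 6.45 and 4.68 CPM in αMut1 B1 to B4 and 0.327, 0.347 and 0.242 CPM in αMut1 B5 to B7. In αWT the levels were 0.0941, 0.0749, 0.0497 and 0.132 CPM in B1 to B4 and 0.341, 0.476, 0.334 and 0.184 CPM in B5 to B8. αMut1 B5 to B7 overlapped αWT B5 to B8. The others of the 6 largest were TMPRSS11F, PPP1R3A, MTUS1 and NAP1L2, all higher, and CHDH (choline dehydrogenase), which was lower with 3 counts in αMut1 B1 to B4 against 239 in αWT B1 to B4. AHSP, the chaperone of free α-globin (chr16:31527900-31528803), was called in B1 to B4 only and was chosen after its values were seen. It had 1.24, 1.49, 1.20 and 1.22 CPM in αMut1 B1 to B4 and 8.02, 8.21 and 7.89 CPM in αMut1 B5 to B7, against 8.44, 8.24, 6.38 and 7.96 CPM in αWT B1 to B4 and 6.38, 6.60, 5.87 and 7.26 CPM in αWT B5 to B8, and its log2 change was -2.58 ± 0.13 in B1 to B4 and 0.30 ± 0.11 in B5 and up (edgeR adjusted p = 1.2e-20 and 0.029).

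Among genes called in B5 and up with a log2 change within 0.25 of 0 in B1 to B4, CERS6, a ceramide synthase (chr2:168456249-168775134), had 62.4, 53.0, 58.6 and 60.4 CPM in αMut1 B1 to B4 and 1.57, 1.32 and 1.25 CPM in αMut1 B5 to B7. Levels in αWT were 53.7, 49.8, 53.3 and 50.4 CPM in B1 to B4 and 35.9, 39.0, 36.0 and 32.4 CPM in B5 to B8. Its log2 change in B5 and up was -4.69 ± 0.16. LPL, lipoprotein lipase (chr8:19901717-19967259), had 8.38, 8.16, 8.75 and 8.33 CPM in αMut1 B1 to B4 and 0.491, 0.416 and 0.322 CPM in αMut1 B5 to B7, against 8.28, 8.17, 9.71 and 9.60 CPM in αWT B1 to B4 and 5.08, 5.36, 4.29 and 4.38 CPM in αWT B5 to B8, a difference between the sets of -3.43 ± 0.24 (edgeR adjusted p = 2.5e-15). HYI, GALNTL6 and SAMD5 were also lower and HOXD8 was higher in B5 and up. HYI had 1 count in αMut1 B5 to B7 against 218 in αWT B5 to B8.

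Several lists had more members called in 1 set than in the other. Of all genes tested, 20.8% were higher and 13.1% lower in B1 to B4, and 14% higher and 10.5% lower in B5 and up. Of 24 replication-dependent histone genes, 13 (54.2%) were called higher and 0 lower in B1 to B4, against 2 and 0 in B5 and up, and 0 in both. Most such mRNAs lack a poly(A) tail, and the part of the poly(A) selection was not tested. The share of counts in the listed histone genes was 0.0914 to 0.0965% in αMut1 B1 to B4 and 0.102 to 0.106% in αMut1 B5 to B7, against 0.0672 to 0.0727% in αWT B1 to B4 and 0.0803 to 0.0932% in αWT B5 to B8. Of 13 mitochondrially encoded genes, 8 (61.5%) were higher and 0 lower in B1 to B4, and 0 higher and 1 lower in B5 and up. Of 26 ATF4 and amino acid stress genes, 9 (34.6%) were higher and 0 lower in B1 to B4, among them CHAC1 (1.93 and -0.35), SLC7A11 (1.16 and -0.08) and PHGDH (1.07 and 0.00), against 2 higher and 3 lower in B5 and up. Of 37 DNA replication genes, 9 (24.3%) were lower and 1 higher in B1 to B4, against 0 in each direction in B5 and up. Of 30 lysosome and autophagy genes, 7 (23.3%) were higher in B1 to B4 and 14 (46.7%) in B5 and up.

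A second clone with the HS-40 G4 mutated, αMut2, gives values to set beside these, although its comparison would share the αWT libraries and its libraries used here are the 4 numbered B1 to B4. The lowest, median and highest of the αMut2 libraries were 12.4, 12.8 and 16.1 CPM for SLC4A1, 10.9, 11.8 and 12.5 CPM for TUBB1 and 10.3, 12.1 and 13.5 CPM for OPTN, within or near the range of the αWT libraries. For MX2 they were 1.96, 2.11 and 2.38 CPM, for USP18 2.63, 2.91 and 2.97 CPM and for HLA-C 21.9, 25.7 and 26.5 CPM, between the αMut1 and αWT levels. For MT1E they were 0.314, 0.320 and 0.331 CPM, for S100A6 0, 0.0113 and 0.0361 CPM and for CT55 1.83, 2.00 and 2.55 CPM. S100A6 was thus at or near 0 in αMut2 as well. The per-library median of 16p genes in αMut2 stood between -0.31 and -0.21 on the scale used above, and that of 7p genes between 0.26 and 0.30.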

How the data were processed

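Poly(A) RNA of K562 cells was sequenced after a directional library protocol, and per the labels and the study's methods the authors trimmed reads with cutadapt, aligned them to hg38 with BWA, used SAMtools 1.15.1 and Picard, and deposited featureCounts counts per gene on GENCODE 42, not normalised. How strand and multiply matching reads were counted is not given in the sources used here. Each file held 62696 genes, of which 62625 were matched to GENCODE 44 for symbols and coordinates, and 29 genes counted under only 1 alignment reference were not named. Depth was 17701807 to 48671570 counts per library, and counting intervals and floors cover counting error only.

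The counts of all 43 α-globin-locus libraries (the unedited line, both mutants and the rescue clones) were fitted with edgeR 4.0.16 (quasi-likelihood, R 4.3.3, TMM), for genes with a mean of at least 10 counts, with Benjamini-Hochberg adjustment over all genes. Calls needed an adjusted p under 0.05 and an absolute log2 change above 0.5. The change was tested over all numbers, in libraries B1 to B4, in B5 and up, and as the difference between these. Standard errors were the absolute log2 change divided by the square root of the F statistic. They understate the error where a group is near 0, so none is given for FGF13 and LDOC1. DESeq2 1.42.0, other scaling, no filter, other sample sets, a replicate block and leaving out each library were the alternatives.

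Named genes were the 10 largest rises and falls in both sets without overlap of the lines and with a mean of at least 1 CPM in 1 line, the 8 largest rises and falls in CPM, up to 4 members per list plus those needed to show that a list did not move, the 6 largest changes of opposite direction or of 1 set only (absolute log2 under 0.25 in the other), up to 3 genes of each window of 10 megabases with a median beyond 0.4 in both sets, the globin locus genes, and listed transcription factors. Globin genes otherwise, genes that are not protein coding and genes without a symbol were not named. The members and lists were chosen with earlier results of these data known. The sequence of the edited site and some genes that the rule names are not reported here.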

Additional observations from a re-analysis of the deposited data

Results flagged for a closer look

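In 7 of 108 groups of libraries scanned, 1 library lay far from the others of its group, where chance gives about 1 in 20. αMut1 B1 had the lowest total of its line and of αMut1 B1 to B4, 17701807 counts. αWT B8 had the highest share of counts in mitochondrial genes of its line and of αWT B5 to B8, 1.61%. The 5p median of αWT B1 (0.0702) was high among αWT B1 to B4, and the 7p median of αWT B6 (-0.00866) was high among αWT B5 to B8. S100A6 was at 0.0339 CPM in αMut1 B4 and at 0 in the other αMut1 libraries.

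For 27 of the 37 genes given per library, the log2 change differed between the sets by the edgeR interaction test, stated here as B5 and up minus B1 to B4. Some of the 37 were named because their change differed between the sets, so this count does not describe genes at large. Of all genes tested, 12.2% had a higher and 17% a lower change in B5 and up by the same test. Among interferon and MHC genes the difference was -1.36 for MX2, 0.52 for USP18, -2.66 for RSAD2 and -0.54 for HLA-B. Among erythroid and megakaryocyte genes it was -0.71 for SLC4A1, 1.43 for ALAS2, 2.88 for AHSP, -0.61 for HBD and -1.04 for THBS1. It was 2.2 for MT1G, -3.15 for TGFBR2, 0.76 for OPTN, -0.76 for SPARC, -1.05 for NDRG1 and -1.16 for CDKN1A. Genes with the largest rises or falls gave 3.41 for CT55, 6.57 for PGR, -3.56 for BACE2 and -5.07 for NXF3. The widest differences were 10.50 for FGF13, 9.30 for LDOC1, 8.14 for CALN1, -8.53 for BCHE, -11.24 for ADAMTS9, -6.07 for TFPI2, -4.86 for CERS6 and -3.43 for LPL. Fitted values of genes with 3 counts or fewer in a group (PGR, LDOC1, BCHE and ADAMTS9) depend on the prior count and are no bounds.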

How the results depend on the processing

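The 5 counts of called genes stayed within 1.5 times under all 85 alternative values. Leaving out 1 library gave 3916 to 4310 genes over all numbers, 5937 to 6216 in B1 to B4, 4179 to 4534 in B5 and up, 2052 to 2235 in both sets and 4718 to 5582 for the difference. The library numbers were not taken to pair the lines, since the correlations of deviations of same-numbered libraries ran between -0.149 and 0.399 and were not all above 0.1, although 4 of 7 αMut1 libraries correlated best with their own number. With the number as a replicate block, 4233 genes were called over all numbers, 6146 in B1 to B4, 4359 in B5 and up and 2270 in both sets. DESeq2 called 2105 genes in both sets. Of 7176 values of 156 named genes, 106 lost their call, 4 gained one and 0 changed direction. The 33 genes concerned include ALAS2, FOXO3, PSAP, NSUN2 and PLEK in B1 to B4, and LYZ, NIP7, SF3A3 and RNPS1 in B5 and up. Of 400 list counts, 2 moved beyond 1.5 times: cancer-testis genes higher in both sets numbered 1 without the filter, and genes around the α-globin cluster lower in both sets numbered 1 with the block, NPRL3 losing its B1 to B4 and DECR2 its B5 and up call. Red cell membrane genes higher in both sets numbered 9 to 13 over the alternatives, 10 without αWT B8; this check and that of chromosome regions were chosen after seeing the data. Of 133 region medians, 36 moved by more than 1 SD between libraries and 0 reversed. Depth limits the genes at 3 counts or fewer, and 1 clone limits all results.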
